A study of Bos taurus with 8 samples.

Results

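The genes described here are the proteasome genes of the rumen papilla, taken as every bovine gene whose symbol begins with PSMA, PSMB, PSMC, PSMD, PSME, PSMF or PSMG and whose RefSeq accession is that of a probe on the array. This rule found 35 genes among the 7788 gene symbols matched on the array, each with 1 probe that is spotted 2 times. They were the 7 alpha subunits of the core (PSMA1 to PSMA7), 6 beta subunits of the core (PSMB2, PSMB3, PSMB4, PSMB5, PSMB7 and PSMB11), 5 ATPases of the cap base (PSMC1 to PSMC5) and 9 other cap subunits (PSMD1, PSMD2, PSMD3, PSMD4, PSMD6, PSMD11, PSMD12, PSMD13 and PSMD14). The 3 assembly chaperones PSMG1, PSMG2 and PSMG3 and the 4 immunoproteasome genes PSMB8, PSMB9, PSME1 and PSME2 were also present. PSME3IP1, which fits the symbol rule but encodes a partner of an activator and not a subunit, completed the set. The other 15 genes of the reference with such symbols had no matched probe and were not analysed here: PSMA8, PSMB1, PSMB6, PSMB10, PSMC3IP, PSMC6, PSMD5, PSMD7, PSMD8, PSMD9, PSMD10, PSME3, PSME4, PSMF1 and PSMG4.

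The proteasome is the protease that degrades proteins tagged with ubiquitin. Its core is a barrel of stacked rings, in which the outer alpha rings gate the entry and the inner beta rings hold the active sites, and the cap recognises the tag, removes it and unfolds the protein with a ring of ATPases. In cells exposed to interferon, the beta subunits encoded by PSMB8, PSMB9 and PSMB10 take the place of those encoded by PSMB5, PSMB6 and PSMB7, and PSME1 and PSME2 form an alternative cap (PA28), which together favour the making of peptides for display on class I molecules. The rumen papilla is lined by a stratified squamous epithelium that is shed and renewed and lies in contact with the microbes and acids of the rumen.

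Papillae came from 4 lactating Holstein cows, all female and fitted with a ruminal cannula. Every cow was fed both diets in turn, LC with 40% concentrate and HC with 70% concentrate, and was sampled on day 21 of each period, 4 h after feeding. In period 1 cows 1 and 2 were on LC and cows 3 and 4 on HC, and in period 2 the diets were exchanged. RNA from each sampling was hybridised to 1 single-colour array, which gave 4 arrays per diet and 8 in all. An array is named below by its diet and cow. Each period was on a slide of its own that was scanned at 1 time, so that slide, scan and period cannot be told apart.

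Whole papillae were used, so a smaller share of a cell type and less RNA per cell cannot be told apart. The arrays had median intensities of 92.1 to 132, with 76.9 to 81.2% of their 21475 probes well above background. All values below are log2 signals after quantile normalization, and differences are in log2 units, so that 0.58 is 1.5-fold. Of the 11 squamous epithelium markers on the array, 10 were above background on all 8 arrays and TP63 on none. All 11 stroma and muscle markers, both endothelial markers on it and 9 of 12 leukocyte markers were above background on all arrays, and the leukocyte marker ITGAM was so on none. All 35 proteasome genes were well above background on all 8 arrays. The 2 spots of a proteasome probe differed by a median of 0.08 within an array.

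The first comparison asked whether proteasome genes differed between the diets. None did at the study's thresholds, applied here to limma's p, and none did with the ordinary linear model that the study's methods name. A call needed a 1.5-fold change or more together with an unadjusted limma p under 0.05, and 0 of 35 genes were called, where 0.922% of all probes were. With the unadjusted p alone the count was 0 of 35, against 3.65% of all probes, and no probe of the array had an adjusted p under 0.05 (0% of all, the smallest 0.412 and that of every proteasome gene 1.00). The HC minus LC differences of the 35 genes ran from -0.06 (PSMD4) to 0.25 (PSMB9), with a median of 0.02, and 22 were positive, against 49.9% of the 16030 probes above background on all arrays. The median size of the difference, without its sign, was 0.03 over the 35 genes and 0.08 over those 16030 probes.

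The intervals bound how large a diet difference could be. The 95% interval of the difference lay within 1.5-fold in either direction for 34 of 35 genes, compared with 79% of the probes above background on all arrays. PSMB9 was the exception, with an upper bound of 0.61. These intervals are those of the fit of diet, period and their interaction, which has no term for cow. With cow as a fixed block, on fewer residual degrees of freedom, the standard error of PSMB9 was 0.098 against 0.150. Intervals of the blocked fit are not given. The standard errors of the 35 differences were 0.084 to 0.163. A p above the threshold does not show that a gene was the same on both diets, and the intervals give the range that these arrays leave.

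**Figure D1:**
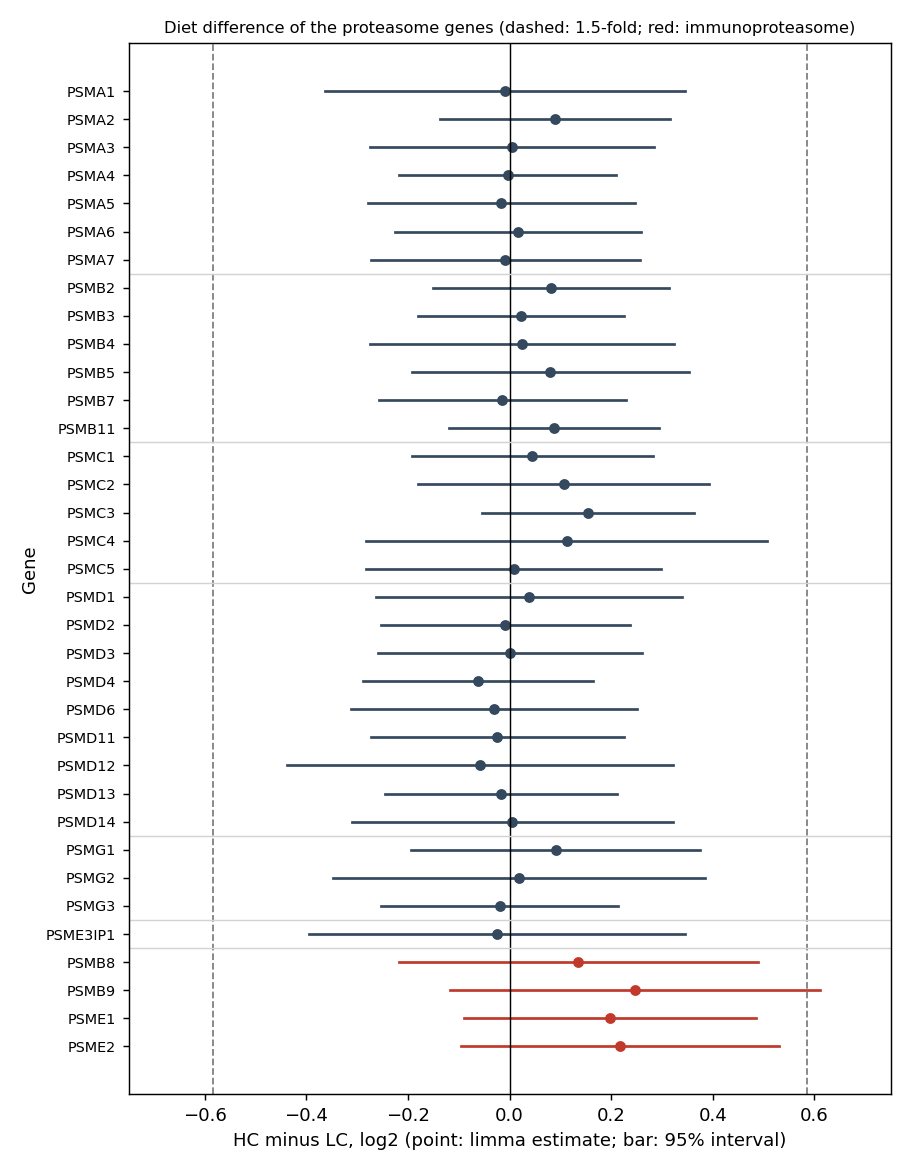
Diet difference of the 35 proteasome genes. Each point is the HC minus LC difference (log2) fitted by limma over 8 arrays, the bar is its 95% interval, the dashed lines mark 1.5-fold and the 4 immunoproteasome genes are red. All intervals include 0, those of 34 genes lie between the dashed lines, and the 4 immunoproteasome genes have differences of 0.14 to 0.25.

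The alpha subunits build the outer rings of the core. Their diet differences were -0.02 to 0.09 with a median of 0.00, 3 of 7 were positive and none passed the test. PSMA2 had the largest of these differences. It measured 9.55, 9.52, 9.24 and 9.50 on LC and 9.64, 9.61, 9.48 and 9.44 on HC in cows 1 to 4. The groups overlapped, since the HC array of cow 4 lay below 3 LC arrays, and the difference was 0.09 (95% interval -0.14 to 0.32, exact permutation p = 0.371). PSMA5 had the lowest difference. Its signals were 13.83, 13.66, 13.40 and 13.70 on LC and 13.86, 13.71, 13.47 and 13.48 on HC, a difference of -0.02 (-0.28 to 0.25, exact permutation p = 0.943). For this gene both arrays of cow 1 were higher than all others and the 2 arrays of cow 3 were the lowest, whatever the diet.

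The beta subunits of the core include the constitutive active sites. The 6 on the array had diet differences of -0.01 to 0.09 with a median of 0.05, 5 of them positive and none past the test. PSMB5 encodes the chymotrypsin-like site that PSMB8 replaces. Its signals were 13.47, 13.40, 13.10 and 13.46 on LC and 13.65, 13.54, 13.21 and 13.35 on HC, and the difference was 0.08 (-0.19 to 0.35, exact permutation p = 0.571). In cows 1, 2 and 3 it was higher on HC by 0.11 to 0.18, and in cow 4 the difference was -0.10.

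PSMB7 encodes the trypsin-like site that PSMB10 replaces. It measured 14.36, 14.37, 14.37 and 14.44 on LC and 14.44, 14.52, 14.11 and 14.41 on HC, a difference of -0.01 (-0.26 to 0.23, exact permutation p = 0.943). The LC arrays spanned less than 0.1 and the HC array of cow 3 lay below all the others. PSMB11 is the beta subunit known from the thymic epithelium. It had 5.94, 6.03, 5.85 and 5.95 on LC and 5.85, 5.89, 6.13 and 6.24 on HC, a difference of 0.09 (-0.12 to 0.29, exact permutation p = 0.457). The floor, the lowest signal that counted as above background on an array, was 2.02 to 2.77, so the PSMB11 probe was measured, but its 2 spots differed by a median of 0.38, the most among the 35 probes. No diet difference of PSMB11 could be seen beyond that scatter.

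The ATPases of the cap base unfold the substrate. All 5 on the array had positive diet differences, of 0.01 to 0.15 with a median of 0.11, and none passed the test. PSMC3 had the smallest p of the 35 genes. Its signals were 11.97, 11.91, 12.17 and 12.02 on LC and 12.27, 12.27, 12.03 and 12.11 on HC, and the difference was 0.15 (-0.05 to 0.36, p = 0.120, exact permutation p = 0.114). It was higher on HC in cows 1, 2 and 4 and lower in cow 3, where the LC array exceeded the HC array of that cow and that of cow 4. With another background correction (normexp) the difference was 0.18, and there, as with an ordinary linear model without shared variance, PSMC3 was the 1 proteasome gene with an unadjusted p under 0.05. PSMC5 had the smallest difference of the 5 ATPases, with 13.77, 13.55, 13.62 and 13.77 on LC against 13.80, 13.81, 13.38 and 13.76 on HC (0.01, -0.28 to 0.30, exact permutation p = 0.914).

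The other cap subunits form the scaffold of the cap base and the lid, which receive tagged proteins and cut off the tag. The 9 on the array had differences of -0.06 to 0.04 with a median of -0.02, and 3 were positive. PSMD1, a large scaffold subunit of the base, had the largest. It measured 12.02, 11.95, 11.67 and 12.15 on LC and 12.25, 12.22, 11.70 and 11.77 on HC, a difference of 0.04 (-0.26 to 0.34, exact permutation p = 0.83). PSMD4, the ubiquitin receptor of the cap, had the lowest difference of all 35 genes, with 12.01, 12.25, 11.73 and 11.71 on LC and 11.98, 11.93, 11.74 and 11.82 on HC (-0.06, -0.29 to 0.16, exact permutation p = 0.714). For PSMD4 the arrays of cows 1 and 2 were all above those of cows 3 and 4, on both diets.

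The chaperones PSMG1, PSMG2 and PSMG3 assist the assembly of the alpha ring. Their differences were -0.02 to 0.09 and none passed the test. PSMG1, the highest of the 3 in its difference, had 12.43, 12.38, 12.10 and 12.53 on LC and 12.64, 12.55, 12.28 and 12.34 on HC (0.09, -0.19 to 0.38, exact permutation p = 0.514). PSMG3, the lowest, had 11.81, 11.63, 11.51 and 11.52 on LC and 11.73, 11.62, 11.42 and 11.62 on HC (-0.02, -0.25 to 0.21, exact permutation p = 0.886). Both overlapped between the diets. PSME3IP1 had a difference of -0.03 (exact permutation p = 0.857).

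The 4 immunoproteasome genes included the 3 largest diet differences of the 35 genes, PSMB9, PSME2 and PSME1, and all 4 were positive, although none passed the test. Their diet differences were 0.14 (PSMB8), 0.25 (PSMB9), 0.20 (PSME1) and 0.22 (PSME2), a median of 0.21, where the other 31 genes had a median of 0.01. Each was highest on the same array, that of cow 4 on HC.

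PSMB9 encodes the immunoproteasome subunit that takes the place of PSMB6. Its signals were 9.88, 9.83, 9.71 and 10.01 on LC and 10.24, 9.90, 9.91 and 10.37 on HC in cows 1 to 4. In 4 of 4 cows the HC array was the higher, by 0.35, 0.07, 0.20 and 0.36. The groups overlapped, because the LC array of cow 4 lay above the HC arrays of cows 2 and 3. The means were 9.86 ± 0.12 on LC and 10.11 ± 0.24 on HC (SD, n = 4). The difference of 0.25 (-0.12 to 0.61) had p = 0.150 in limma and an exact permutation p of 0.143. With the arrays paired by cow the exact permutation p was 0.125, the smallest that 4 pairs allow. With cow as a random block the unadjusted p fell under 0.05, and with cow as a fixed block it did not.

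PSMB8 encodes the subunit that replaces PSMB5. It measured 9.75, 9.96, 10.00 and 9.99 on LC and 10.07, 9.92, 9.85 and 10.41 on HC. It was higher on HC in cows 1 and 4, by 0.32 and 0.42, and in cows 2 and 3 the differences were -0.04 and -0.15. The means were 9.93 ± 0.12 and 10.06 ± 0.25 (SD, n = 4), with exact permutation p = 0.429, or 0.5 with the arrays paired by cow. Taken as a difference from PSMB5 on the same array, PSMB8 differed by 0.06 between HC and LC (exact permutation p = 0.771), with 0.14, -0.18, -0.26 and 0.53 in cows 1 to 4. Cows 2 and 3 thus had the opposite sign to cows 1 and 4.

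PSME1 and PSME2 encode the alpha and beta subunits of PA28 and, in the gene order of the reference, are separated by EMC9 alone. PSME2 had 12.31, 12.31, 12.30 and 12.30 on LC and 12.48, 12.36, 12.37 and 12.88 on HC. All 4 HC arrays lay above all 4 LC arrays, the lowest HC array by 0.05 over the highest LC array. It was the single member of the 35 with this order of arrays, where 0.922% of all probes had it, and no member had all HC arrays below all LC arrays, where 0.68% of all probes did. Its exact permutation p was 0.0286, the smallest that 4 against 4 arrays can give, when the arrays were taken as unpaired. With the arrays paired by cow the exact permutation p was 0.125, the smallest that 4 pairs allow. In limma the difference was 0.22 (-0.10 to 0.53) and did not pass, with or without cow as a block. The LC arrays of PSME2 agreed within 0.02 of each other (12.31 ± 0.01, SD, n = 4) and the HC arrays averaged 12.52 ± 0.24.

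PSME1 had 12.15, 12.34, 12.24 and 12.19 on LC and 12.34, 12.29, 12.34 and 12.74 on HC. The groups overlapped through cow 2, whose LC array exceeded its HC array. The difference was 0.20 (-0.09 to 0.48, p = 0.144, exact permutation p = 0.0857), and the HC array was the higher in cows 1, 3 and 4, by 0.20, 0.10 and 0.54. With the arrays paired by cow the exact permutation p was 0.25.

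**Figure D2:**
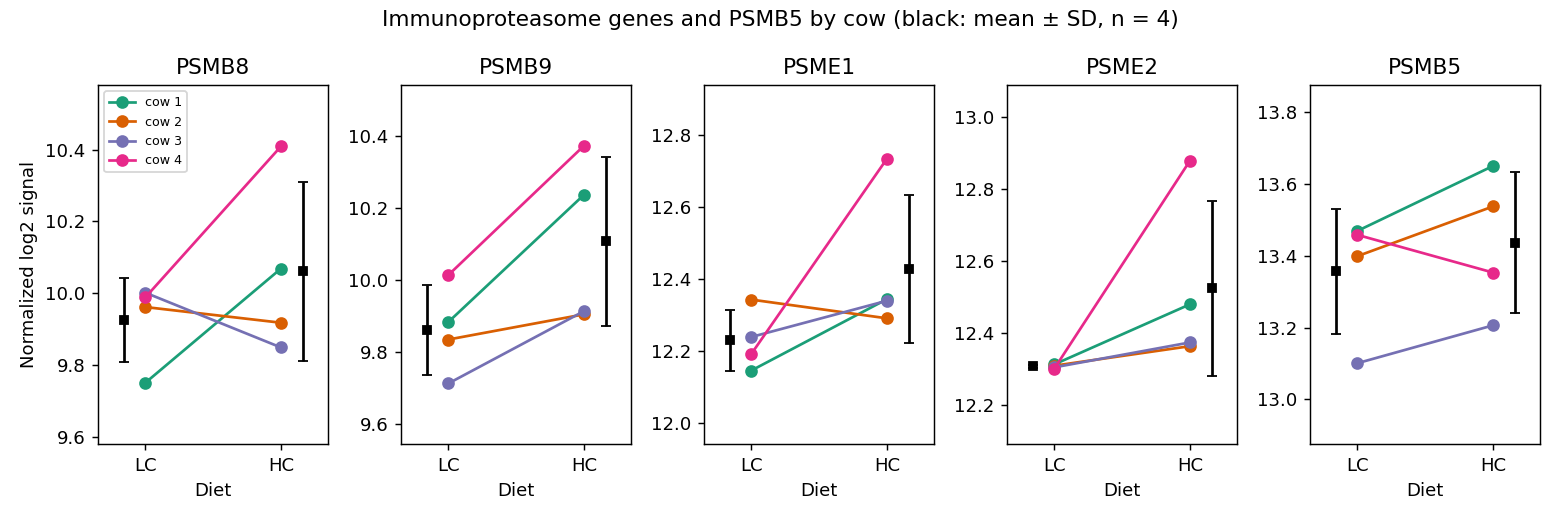
Signals of the 4 immunoproteasome genes and of PSMB5 by diet. The y axes are normalized log2 signals of equal span, each coloured line joins the LC and HC arrays of 1 cow, and black squares with bars are means ± SD (n = 4). The HC array of cow 4 is the highest point in the 4 immunoproteasome panels, at 10.41, 10.37, 12.74 and 12.88, and for PSMB5 it lies below the LC array of that cow, at 13.35 against 13.46.

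The HC array of cow 4 was the highest of the 8 arrays for 4 of the 4 immunoproteasome genes. Among the other 31 proteasome genes it was the highest for 1 (PSMB11), and among the 16030 probes above background on all arrays for 10.5%. The 4 genes were also highest there with the normexp correction, with 2 forms of scaling to the 75th percentile and in the authors' normalized table. The HC minus LC differences of these genes in cow 4 were 0.36 to 0.58 (median 0.48), and the medians in cows 1, 2 and 3 were 0.26, 0.01 and 0.09. Without the HC array of cow 4, the median of the 4 diet differences was 0.09, and the values were 0.00 for PSMB8, 0.13 for PSMB9, 0.10 for PSME1 and 0.09 for PSME2. Without the HC array of cow 3, the median was 0.32, with 0.30 for PSME1 and 0.34 for PSME2. Each of these fits leaves a single HC array in period 1, which then weighs more in the diet difference. That array is the one of cow 3 when cow 4 is left out, and the one of cow 4 when cow 3 is left out. Within period 1, which holds the HC array of cow 4, the median was 0.29, and within period 2 it was 0.11.

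The class I and interferon genes of the same arrays can be set beside these values. In a list of 34 genes of the interferon response and of class I antigen presentation, 17 were on the array, none of them (0 of 17) reached an unadjusted p under 0.05 in the limma fit, where 3.65% of all probes did, so the count is near that background. The median difference was 0.15, and 13 of the 16 genes above background on all arrays were positive, against 49.9% of such probes. By cow, the median HC minus LC difference of the 17 genes was 0.03, -0.03, 0.05 and 0.65 in cows 1 to 4. Of the 17 genes, 11, 8, 9 and 14 were higher on HC in those cows. Of the probes above background on all arrays, 51.4, 52.8, 51.1 and 47.4% were. OAS2 was above background on 1 array, the HC array of cow 4. That array was the highest of the 8 for 10 of the other 16, against 10.5% of the probes above background on all arrays. The mean log2 signal of these 16 was 8.63 to 9.13 on the LC arrays and 8.66 to 10.09 on the HC arrays, the highest being that of cow 4. The ubiquitin-like modifier ISG15 reached 13.57 there, 3.25 above the LC array of that cow, the antiviral GTPase MX1 11.20 (3.16 above) and the transcription factor subunit IRF9 11.97 (2.22 above). In cows 1, 2 and 3 IRF9 was higher on HC by 0.31, 0.11 and 0.05. In the same cows ISG15 moved by 0.74, -1.93 and 0.57, and MX1 by 0.71, -1.24 and 0.33. IFNAR1, IFNGR1 and TAPBP were lower on HC in cow 4, with differences of -0.36, -0.29 and -0.02. B2M, the light chain of class I molecules, was higher on HC by 0.36 in cow 4 and by 0.02 to 0.12 in the others. On the reference genome, IRF9 lies in the neighbourhood of PSME2 and PSME1, with RNF31 between them, and PSMB8 and PSMB9 lie to either side of TAP1, which had no matched probe.

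Cell type markers were read on the same arrays. The mean of the 12 leukocyte markers was 6.79 to 7.14 on LC and 7.02 to 7.32 on HC, 7.14 on the HC array of cow 4, and none of the 12 was highest there. Their diet differences had a median of 0.16, near the 0.21 of the immunoproteasome genes, and 10 of 12 were positive (7 of the 9 above background on all arrays, where 49.9% of such probes were), none with an unadjusted p under 0.05. In cow 1 their median HC minus LC difference was 0.51, and in cow 4 it was 0.02. The T cell marker CD3E had a diet difference of 0.30 (exact permutation p = 0.257), but its HC minus LC difference in cow 4 was -0.42. CD74, the invariant chain of class II molecules, had 0.32 (exact permutation p = 0.171). CD14 had 0.31 (exact permutation p = 0.314) and GZMB 0.28, with HC minus LC differences of 0.65 and -0.72 in cow 4. The remaining markers of the list had smaller or negative differences, among them 0.05 for CD2, -0.06 for CD4 and -0.07 for CD79A. In cow 4, 6 of the 12 were higher on HC, where 47.4% of the probes above background on all arrays were. The squamous markers averaged 12.77 to 13.19 on LC and 12.79 to 13.20 on HC, highest on the HC array of cow 4, where 3 of the 10 above background on all arrays had their maximum. Stroma and muscle markers averaged 11.36 to 11.65 on LC and 11.44 to 11.62 on HC, and none of the 11 was highest on the HC array of cow 4. The 2 endothelial markers averaged 8.27 to 8.62 on LC and 8.30 to 8.89 on HC, with the maximum on the HC array of cow 4. They differed there, since the HC minus LC difference in cow 4 was 0.59 for KDR and -0.07 for TEK. TEK was highest on the HC array of cow 2. The part of these markers and of the interferon genes in the immunoproteasome values was not tested.

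**Figure D3:**
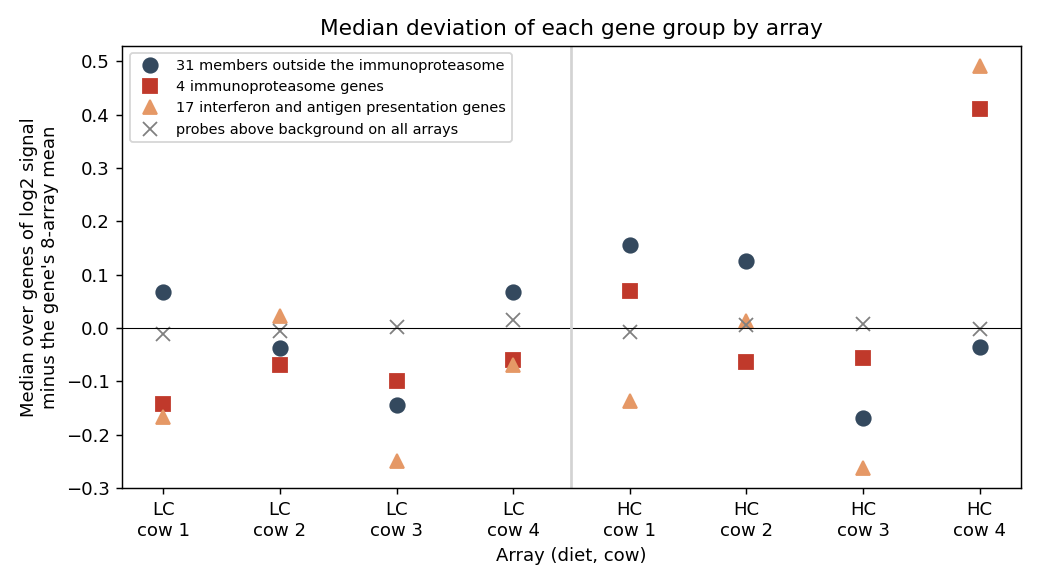
Median deviation of each gene group on each array. The y axis is the log2 signal of a gene minus its own mean over 8 arrays, taken as the median over the genes of a group, for the 31 proteasome genes outside the immunoproteasome, the 4 immunoproteasome genes, 17 interferon and antigen presentation genes and the 16030 probes above background on all arrays. On the HC array of cow 4 the immunoproteasome genes stand at 0.41 and the interferon genes at 0.49 (0.47 without OAS2, which was above background on that array alone), while the other proteasome genes are at -0.04, and these lie lowest on the 2 arrays of cow 3, at -0.14 and -0.17.

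Outside the immunoproteasome, 1 cow had the lowest signal for most genes. Cow 3 had the lowest mean of the 4 cows for 22 of the 31 genes, where 31.1% of the probes above background on all arrays had it, and for 1 of the 4 immunoproteasome genes. Some other gene groups were low in this cow too. It had the lowest mean for 8 of 11 squamous markers (7 of the 10 above background on all arrays) and for 8 of 12 leukocyte markers (7 of 9). Other groups were not, since cow 3 had the lowest mean for 3 of 11 stroma and muscle markers and for 0 of 2 endothelial markers. The stroma and muscle markers had a median deviation of 0.05 in this cow. The squamous markers had median deviations of -0.15 and -0.14 on its LC and HC arrays. Its LC array also had the lowest median intensity (92.1) and the fewest probes above background (76.9%) of the 8. Its HC array had 114.9 and 79.8%, neither of them the lowest among the HC arrays. The part of intensity and background in the low signals was not tested. The LC array of cow 3 lay below the gene's own mean for 24 of the 31 proteasome genes, with a median deviation of -0.14, and its HC array for 29 of 31, with a median of -0.17. The HC arrays of cows 1 and 2 stood highest, with median deviations of 0.16 and 0.12, and on the LC arrays of cows 1 and 4 the median was 0.07. The genes of 1 array share its RNA and its labelling, so these counts describe 8 arrays and not 31 independent measurements.

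PSMA1, an alpha subunit of the core, had the smallest p for a difference among cows and was chosen after its values were seen. Its signals were 12.65, 12.46, 12.08 and 12.57 on LC and 12.59, 12.64, 12.08 and 12.40 on HC, with means of 12.62, 12.55, 12.08 and 12.49 in cows 1 to 4. Both arrays of cow 3 were the lowest. In an F test of cow beside diet and period, PSMA1 had an adjusted p of 0.295. It was the single gene of 35 with an unadjusted p under 0.05 in that test, against 16.3% of all probes, and 0 of 35 had an adjusted p under 0.05, against 0.158%. The share of members past the test was thus below that of all probes.

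**Figure D4:**
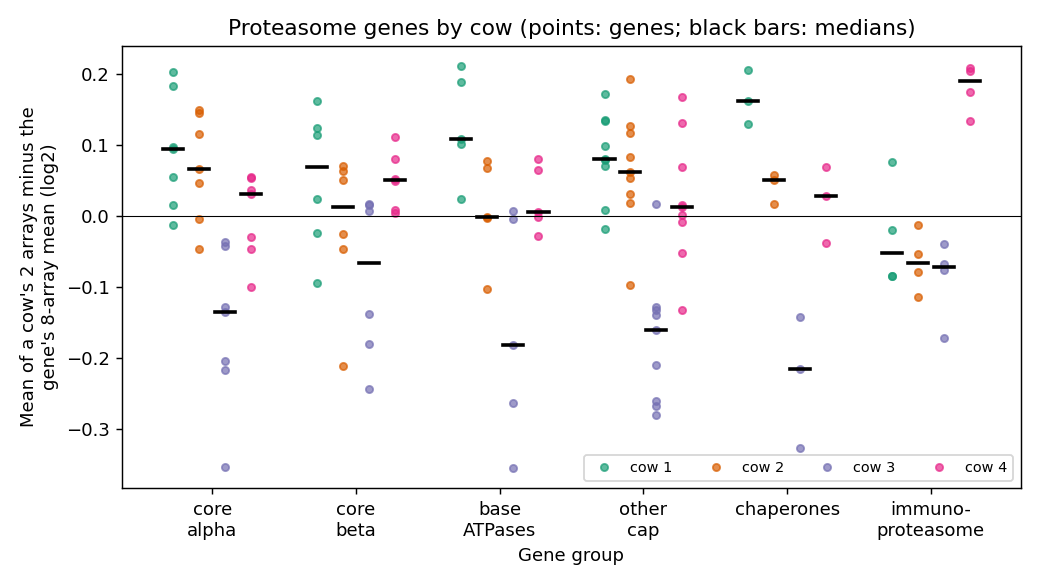
Proteasome genes by cow and gene group. Each point is a gene, the y axis is the mean of the 2 arrays of a cow minus the gene's mean over 8 arrays (log2), and black bars are medians. Cow 3 has the lowest median in all 6 groups, and in the immunoproteasome group the 4 genes of cow 4 stand above those of the other cows.

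The HC minus LC difference also varied in sign from cow to cow. Cows 1 and 2 were on HC in period 2 and cows 3 and 4 in period 1, so within a cow diet and period cannot be told apart, and the period 2 minus period 1 difference was positive for 26 of the 31 genes outside the immunoproteasome, with a median of 0.10. Outside the immunoproteasome, 28 of 31 genes were higher on HC in cow 2 (52.8% of the probes above background on all arrays were), 22 of 31 in cow 1 (51.4%), 17 of 31 in cow 3 (51.1%) and 6 of 31 in cow 4 (47.4%). The median HC minus LC difference of the 31 genes was 0.08, 0.18, 0.01 and -0.08 in cows 1 to 4. Over all 35, 3 genes were higher on HC in 4 of 4 cows, PSMB2, PSMB9 and PSME2, against 6.46% of the probes above background on all arrays. In cow 4 the 4 immunoproteasome genes and 25 of the other 31 thus moved in opposite directions between the diets. Relative to the mean of the other 31 genes on the same array, the 4 immunoproteasome genes were higher on HC in cow 4 by 0.46 to 0.68. In cow 2 the 4 relative differences were -0.20, -0.08, -0.21 and -0.10 for PSMB8, PSMB9, PSME1 and PSME2, and in cow 3 that of PSMB8 was -0.13. Over the 4 cows these relative differences were 0.11 for PSMB8, 0.22 for PSMB9, 0.18 for PSME1 and 0.20 for PSME2, with exact permutation p values of 0.514, 0.143, 0.343 and 0.257.

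**Figure D5:**
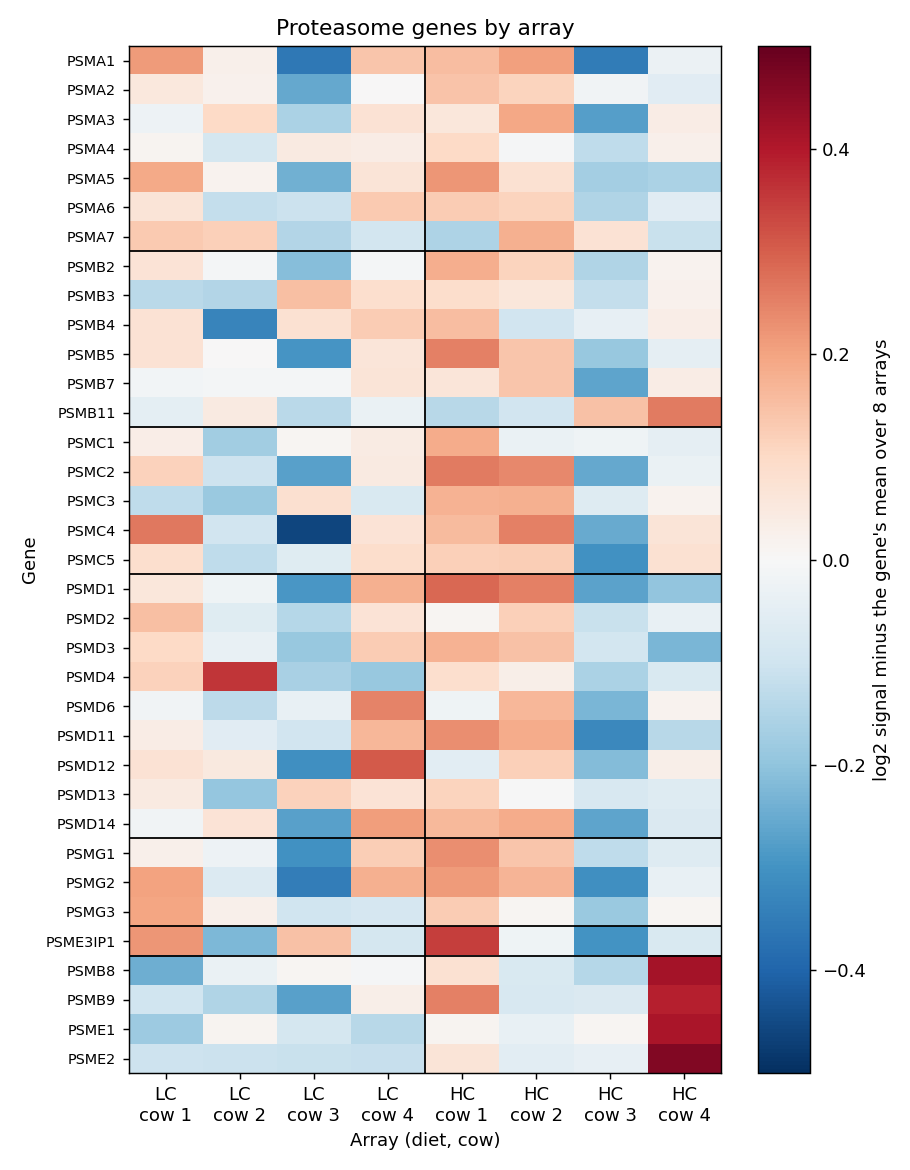
Signals of the 35 proteasome genes on the 8 arrays. Rows are genes in the order of their groups and columns are arrays, and colour is the log2 signal minus the gene's mean over the 8 arrays. The 4 immunoproteasome genes at the bottom are red on the HC array of cow 4, and many of the other genes are blue on both arrays of cow 3.

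The design also allows a comparison of periods and of the 2 groups of cows. For period 2 minus period 1, 0 of 35 genes had an unadjusted p under 0.05 in limma, where 12.3% of all probes did, and 27 differences were positive, against 54.1%. The smallest p values were those of PSMB11, with a difference of -0.20, and of PSMD11, a lid subunit, with 0.24. Period, slide and scan were the same split of the arrays.

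The interaction of diet and period equals, in this crossover, the difference between the means of cows 1 and 2 and those of cows 3 and 4, so it lies between cows. PSMD4 was the single gene of 35 with an unadjusted p under 0.05 (0.29, SE 0.09, limma adjusted p = 0.423), against 10.2% of all probes. Its p was above 0.05 when each cow entered as 1 mean. The same difference was positive for 27 of the 31 genes outside the immunoproteasome and for 0 of the 4 immunoproteasome genes, against 48.7% of the probes above background on all arrays. Within a period the diets were on different cows, and the median diet difference of the 31 genes was -0.14 within period 1 and 0.17 within period 2, while that over both periods was 0.01.

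Genes that work with the proteasome were also measured. In a list of 33 shuttle, assembly, ubiquitin and regulator genes, 16 were on the array, all above background on all arrays. In limma 0 of 16 had an unadjusted p under 0.05, near the 3.65% of all probes. The differences were -0.25 (UBE2D2, a ubiquitin-conjugating enzyme) to 0.21 (ZFAND5, a proteasome-binding protein, exact permutation p = 0.114), and the median was 0.03 with 11 of 16 positive, against 49.9%. POMP, the chaperone that completes the core, had a difference of 0.08 (exact permutation p = 0.229).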

How the data were processed

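Rumen papilla RNA of 4 cows on both diets was measured on 8 single-colour arrays, and groups came from the labels. The authors deposited the scanner output (Agilent Feature Extraction 10.7.3.1), whose spot intensity is background-subtracted and not normalized between arrays. They also deposited a table of quantile-normalized log2 values, used as an alternative. The members and lists were chosen with earlier results of these data known.

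Control and outlier spots were left out, log2 intensities were quantile-normalized with limma 3.58.1 in R 4.3.3, and spots of a probe were averaged. A probe counted as above background where all its spots did. Probes were named by RefSeq accession through a gene table (ARS-UCD2.0), which named 8297 of 10176. No coordinates are given because builds differ. Where a gene has several probes, the brightest is used. The array files hold no probe sequence that was used here.

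For each of 21475 probes, limma fitted terms for diet, period and the interaction (residual degrees of freedom 4, prior 2.26, prior SD 0.182), with Benjamini-Hochberg adjustment over all probes. Single values also had an exact two-sided permutation test (scipy 1.17.1) over 4 against 4 arrays, unpaired unless stated. The 4 immunoproteasome genes also had one over the 4 cow pairs. Tables and plots used pandas 2.3.3 and matplotlib 3.10.9 in Python 3.11.15. The fit was tested on simulated data. The number of arrays limits the precision.

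The labels name the cow. Deviations from the diet means, over 16030 probes, correlated between the 2 arrays of a cow at r = 0.285, 0.298, 0.467 and 0.113. Between arrays of different cows r was -0.237 to 0.185 (across probes, which are not independent replicates). The r of 0.113, that of cow 4, lay within this range, and those of the other cows lay above it. The arrays are paired by cow from the labels, and for cow 4 the correlation does not show the pairing. Blocked fits were alternatives, as were other background corrections (normexp with offset 50, on median signals since the files give no mean signal), scalings, filters, fits within a period and fits without single arrays.

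Values of every array are given for the immunoproteasome genes, their counterparts PSMB5 and PSMB7, members with an unadjusted p under 0.05 and, in each structural group, the largest and smallest diet difference. PSMA1, NFE2L1 and the list genes named were chosen after their values were seen.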

Additional observations from a re-analysis of the deposited data

Results flagged for a closer look

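Among the 70 groups of 4 arrays (35 genes on 2 diets), 7 held an array whose gap to its nearest neighbour took up more of the group's range than Dixon's 95% critical value. Chance gives about 1 in 20 groups. PSME1 on HC had a ratio of 0.880, with cow 4 at 12.74 and the others at 12.29 to 12.34. PSMB8 on LC had 0.841, with cow 1 at 9.75 below the others at 9.96 to 10.00. PSMB4, a core beta subunit, had 0.878 on LC, with cow 2 at 13.73 and the others at 14.13 to 14.18. PSMB7 on LC had 0.919, with cow 4 at 14.44 above 14.36 to 14.37. PSMC1, an ATPase of the cap base, was listed on both diets, at 0.861 on LC, with cow 2 at 11.04 below 11.22 to 11.25, and at 0.896 on HC, with cow 1 at 11.39 above 11.17 to 11.19. PSMC5 on HC had 0.882, with cow 3 at 13.38 below 13.76 to 13.81. Only 1 of the 7, that of PSME1, was the HC array of cow 4.

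For PSMD4 the interaction term of the fit was 0.29 (limma adjusted p = 0.423, unadjusted p under 0.05). In this design that term compares cows 1 and 2 with cows 3 and 4, and 0.29 is the difference between their means. It is not the size of the change in the diet difference between periods.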

How the results depend on the processing

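No member passed both thresholds for diet, and none had an adjusted p under 0.05, under any of the 24 other settings. The count of members with an unadjusted p under 0.05 for diet, 0 as reported, was 1 with an ordinary linear model (PSMC3), with cow as a random block (PSMB9), with normexp (PSMC3) and without cow 3 (PSME2, a setting chosen after seeing the data), and 0 to 2 without single arrays, 2 without the HC array of cow 3. Cow as a fixed replicate block left it at 0. A fit without a single array, or without cow 3 or cow 4, leaves a single array for a diet in a period. That array then weighs more in the diet difference. For period the count of 0 became 4 with the linear model, 1 with cow as a fixed replicate block, 4 with cow as a random block, 3 with trend and robust fitting, 5 with normexp, 1 with each 75th percentile scaling, 3 in the deposited table, 2 with the mean of all probes of a gene, 1 without cow 3 and 0 to 3 without single arrays (3 without the LC array of cow 3). For the interaction the count of 1 became 5 with trend and robust fitting, 7 with normexp, 2 with each percentile scaling, in the deposited table and with a filter on dim probes, 0 on the means of each cow and without cow 3, 11 without cow 4 and 0 to 13 without single arrays (13 without LC of cow 4, and 0 without LC of cow 2, HC of cow 1 or HC of cow 3). The interferon list had 1 gene under 0.05 with cow as a fixed replicate block, with and without period, 1 within period 1, 2 within period 2, 5 without cow 3 and 0 to 5 without single arrays (1 without the LC array of cow 3 and 5 without its HC array). The proteasome-associated list had 1 with the linear model, with cow as a random block, with trend and robust fitting and within period 1, 2 with normexp and 0 to 2 without single arrays (2 without the HC array of cow 3). The median of the 31 genes outside the immunoproteasome was -0.14 within period 1 and 0.17 within period 2. The gap between the diets for PSME2, 0.051 as reported, was 0.061 with normexp, 0.0053 with percentile scaling over all probes and 0.0014 over probes above background. Of the 840 single diet values under other settings, 132 had the other sign, and PSMB9, PSMC3, PSME1 and PSME2 alone kept theirs in all 24. The cause of these changes was not tested. All members were above background on all arrays.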

Other observations

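NFE2L1, the transcription factor that raises proteasome genes when proteasome activity falls, was chosen after its values were seen. It measured 9.49, 9.55, 10.80 and 10.01 on LC and 10.16, 9.75, 10.27 and 10.02 on HC in cows 1 to 4. The 2 arrays of cow 3, on which most proteasome genes outside the immunoproteasome were lowest, were the 2 highest for NFE2L1. Its diet difference was 0.09 (exact permutation p = 0.8), and its cows 1 and 2 minus cows 3 and 4 difference was -0.53. The unadjusted limma p of the latter was under 0.05, as it was for 10.2% of all probes. That p counts the 2 arrays of a cow as separate measurements, although the comparison lies between cows. No relation to the proteasome genes was tested.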
